A study of Mus musculus with 24 samples.

Results

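The genes of 2 detoxifying enzyme families, the glutathione transferases and the glucuronosyltransferases, were followed in mouse liver through cholestatic injury and loss of the kinase gene Jnk1. Members were all genes whose symbol belongs to the cytosolic and kappa glutathione transferases (Gsta, Gstk, Gstm, Gsto, Gstp, Gstt, Gstz), the microsomal glutathione transferases (Mgst) or the numbered Ugt1, Ugt2 and Ugt3 genes, on probe sets that carried a single symbol. They came to 29 of 18820 measured genes: 17 cytosolic or kappa transferases, 3 microsomal transferases and 9 Ugt genes, here called glucuronosyltransferases. A further 16 matching symbols lay only on probe sets shared by several symbols and have no value here; the Ugt1a genes, Gsta1 and Gsta2 are among them.

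Liver RNA of male C57/BL6 mice was measured on 24 arrays, 3 in each of 8 groups. Control animals were JNK1f/f, with a Jnk1 gene that can be recombined but is intact, and had either sham surgery or bile duct ligation (BDL), which blocks bile flow. JNK1-/- animals lacked the gene in all cells. JNK1Δhepa animals had lost it in hepatocytes, through a Cre transgene under an albumin promoter that becomes active after birth. Both mutants are represented after ligation only. Each of the 4 arms was sampled at 48 h, at an age of 8 weeks, and at 28 d, at 12 weeks, after surgery at 7 to 8 weeks, so time after surgery and age cannot be told apart. The JNK1-/- and JNK1f/f mice came from different sources, and other differences between those lines cannot be told apart from the loss of Jnk1.

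Glutathione transferases join glutathione to reactive electrophiles, lipid peroxidation products and drugs, and several of their genes are classical targets of the oxidative stress factor NRF2. Microsomal transferases are membrane proteins of separate origin, some of which act on lipid hydroperoxides or leukotriene precursors. Glucuronosyltransferases sit in the endoplasmic reticulum and join glucuronic acid to bilirubin, steroids, bile acids and drugs, which makes them soluble for export. Ugt3a1 belongs to a small related family that uses other sugar donors. It is thus not a glucuronosyltransferase in the strict sense, but it is counted under that name here. In whole liver, fewer hepatocytes and less RNA per hepatocyte cannot be told apart.

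The starts of 4 glucuronosyltransferase genes are shown first, because these genes changed after ligation and did so to a different extent at the 2 times. The 8 Ugt2 members lay in 1 stretch of chromosome 5, from 86889770 to 87424203, and Ugt3a1 lay on chromosome 15, from 9279822 to 9315038 (RefSeq, assembly GRCm38.p6). Each sequence runs 5′ to 3′ from 250 to 31 bases before the gene's start. Ugt2b5 (chr5:87140371-87140590), Ugt2b37 (chr5:87254819-87255038) and Ugt2b38 (chr5:87424234-87424453) are on the minus strand, and capitals mark the longest run of bases that all 3 share within the stretches shown. In Ugt2b5 the run ends at the last base shown, so the full run may be longer.
Ugt2b5: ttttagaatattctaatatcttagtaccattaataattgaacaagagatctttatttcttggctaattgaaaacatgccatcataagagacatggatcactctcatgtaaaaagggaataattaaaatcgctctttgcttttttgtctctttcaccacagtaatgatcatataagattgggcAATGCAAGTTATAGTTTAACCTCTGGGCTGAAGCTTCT
Ugt2b37: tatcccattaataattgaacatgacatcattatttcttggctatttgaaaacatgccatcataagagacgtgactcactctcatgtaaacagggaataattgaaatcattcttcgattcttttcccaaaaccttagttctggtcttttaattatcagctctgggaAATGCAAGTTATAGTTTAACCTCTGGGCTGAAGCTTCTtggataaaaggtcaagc
Ugt2b38: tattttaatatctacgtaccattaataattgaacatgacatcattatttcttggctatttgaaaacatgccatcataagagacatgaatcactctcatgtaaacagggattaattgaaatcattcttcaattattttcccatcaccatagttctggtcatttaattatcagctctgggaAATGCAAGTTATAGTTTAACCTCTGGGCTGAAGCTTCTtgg
The shared run of 38 bases was found in 3 of 32851 RefSeq promoter windows on either strand (0.00913%), those of these 3 genes. Between Ugt2b37 and Ugt2b38 the longest shared run was 65 bases, in a stretch further upstream than the marked one. For every pair of Ugt2 members that included a gene outside these 3, the longest shared run was at most 14 bases. These windows were compared after the values were known, and the runs are given as a description. Signal shared between such similar genes was not tested, since no source used here gives the positions of the array probes; the same holds for the Gstm genes, which lie side by side on chromosome 3 from 107926334 to 108045179.

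The start of Ugt3a1, on the plus strand at chr15:9279579-9279798, held a match to the palindromic site of the hepatocyte factor HNF1 (GTTAAT, 2 bases of any kind, then TTAAC). The match lies on the opposite strand, and capitals show it as it reads on the gene's strand.
Ugt3a1: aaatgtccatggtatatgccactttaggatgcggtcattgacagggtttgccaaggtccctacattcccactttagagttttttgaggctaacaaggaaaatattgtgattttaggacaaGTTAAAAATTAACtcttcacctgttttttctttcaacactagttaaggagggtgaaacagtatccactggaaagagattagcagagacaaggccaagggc
This motif was searched after the values were known, on both strands, in windows from 250 bases before to 50 after each start. It was present in 13 of 32851 windows (0.0396%) and in 1 of the 27 members with a window in the table. Its half-site GTTAAT, which overlaps the paired match in Ugt3a1, was present in 3 members (Gsta3, Ugt2a3 and Ugt3a1), or 11.1%, and in 8.24% of all genes of the table. The core of the antioxidant response element through which NRF2 acts, TGACNNNGC, was present in 3 members (Gsta3, Gstm7 and Mgst1), or 11.1%, and in 14% of all genes of the table; by window it was in 3 of 35 member windows and 12.4% of all windows. It is shown for Gsta3 (chr1:21240335-21240554, plus strand) and Mgst1 (chr6:138140277-138140496, plus strand), both of which fell after 28 d of ligation. Capitals mark the match, which in Mgst1 lies on the opposite strand.
Gsta3: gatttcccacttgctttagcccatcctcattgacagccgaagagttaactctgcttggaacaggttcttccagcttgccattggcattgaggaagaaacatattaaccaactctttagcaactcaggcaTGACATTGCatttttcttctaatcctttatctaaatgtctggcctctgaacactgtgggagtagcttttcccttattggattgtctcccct
Mgst1: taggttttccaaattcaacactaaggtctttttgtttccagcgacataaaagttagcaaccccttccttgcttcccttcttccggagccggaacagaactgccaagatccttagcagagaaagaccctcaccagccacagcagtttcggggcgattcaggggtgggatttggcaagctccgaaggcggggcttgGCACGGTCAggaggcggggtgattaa
Neither Gsta4 nor Gstt2 had a window in the table. A match here is a stretch of letters and not a measured binding site.

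Values are log2 intensities, so a difference of 1 is a change of 2-fold. A gene was called where limma's adjusted p over all 18820 genes was under 0.05. Counts at an unadjusted p under 0.05 are given for members alone. The share of all genes at that looser cut was not taken, so no excess can be read from these counts. The labels name animals by no more than a replicate number, so p-values measure the spread between these samples. Mapk8, the gene of JNK1, read 5.18 to 6.17 on the 6 JNK1-/- arrays, below all others. The JNK1Δhepa arrays read 6.76 to 6.97 except replicate 1 of 28 d, which at 7.67 was at the level of control liver. Of the control arrays 9 read 7.37 to 7.67, but the 3 labelled sham 48 h read 6.67 to 6.93, the level of JNK1Δhepa liver. Whether the probes lie in the deleted part of the gene is unknown here. Groups are named as labelled, and the comparison with sham liver at 48 h is also given with the sham arrays of 28 d. Among the members 2 arrays stood apart. JNK1-/- ligated for 48 h, replicate 1, read below both others of its group in 24 of 29 members, and 10 members and 584 genes lay more than 1 unit from the mean of those others. Control ligated for 28 d, replicate 1, read below both others in 20 of 29 members, with 6 members and 966 genes more than 1 unit away. Over all genes its replicate 3 also stood apart, with 851 genes but 1 member more than 1 unit away. Reading below both others was as frequent on sham 48 h replicate 3 (21 members) and JNK1Δhepa 28 d replicate 1 (20 members). All groups share 1 estimate of the spread, so an array also enters the errors of comparisons it is not part of. Results that rest on the 2 arrays that stood apart among the members are given with and without them. For most alternative fits the share of all genes called was not taken. Where a member count has no such share beside it, no excess can be read from it.

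After 28 d of ligation every measured Ugt gene fell in control liver, the glucuronosyltransferases of the Ugt2 family and Ugt3a1. All 9 were called lower, with a median difference of -1.21, against a median of -0.03 over all genes. Of the 29 members, 17 were called, 15 lower and 2 higher; over all genes 23.2% were called, 11.5% lower and 11.7% higher. Ligated and sham arrays did not overlap in 23 of 29 members, against 33.1% of all genes. The steepest falls were those of Ugt3a1 and Ugt2b1, and the 2 members called higher were the microsomal transferases Mgst3 and Mgst2. The 9 glucuronosyltransferases were called lower under each of the 14 alternatives run. Without control ligated replicate 1, 13 members were called, 11 lower and 2 higher, and the members' median moved from -0.52 to -0.28. Without its replicate 3, 19 were called, 16 lower and 3 higher, with a median of -0.58.

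Ugt3a1 read 11.14, 10.86 and 11.00 after sham surgery and 7.04, 8.38 and 8.30 after ligation. The lowest sham array thus lay more than 2 units above the highest ligated one, and the difference was -3.09 (SE 0.31, 8.54-fold lower, limma adjusted p = 9.25e-07). Ugt2b1 read 12.38, 12.34 and 12.29 after sham and 8.08, 10.32 and 10.14 after ligation. The sham arrays were tight while ligated replicate 1 lay well below the other two, and the difference was -2.82 (SE 0.45, 7.08-fold, limma adjusted p = 0.000136).

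Ugt2b37 and Ugt2b38, which share the longest run before their starts, both fell. Ugt2b37 read 7.24, 7.74 and 7.25 after sham and 5.21, 5.42 and 5.69 after ligation, a difference of -1.97 (SE 0.31, limma adjusted p = 0.000125). Ugt2b38 read 9.50, 9.63 and 9.60 against 7.68, 7.89 and 7.77, a difference of -1.80 (SE 0.21, limma adjusted p = 4.99e-06). Groups were narrow and far apart for both genes. Ugt2b5 was as tight, at 11.35, 11.47 and 11.32 after sham and 10.15, 10.18 and 10.15 after ligation (difference -1.21, SE 0.16, limma adjusted p = 2.33e-05). The other 4 Ugt2 members fell less, from -0.85 for Ugt2b36 and -0.73 for Ugt2b35 to -0.68 for Ugt2a3 and -0.52 for Ugt2b34.

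**Figure D1:**
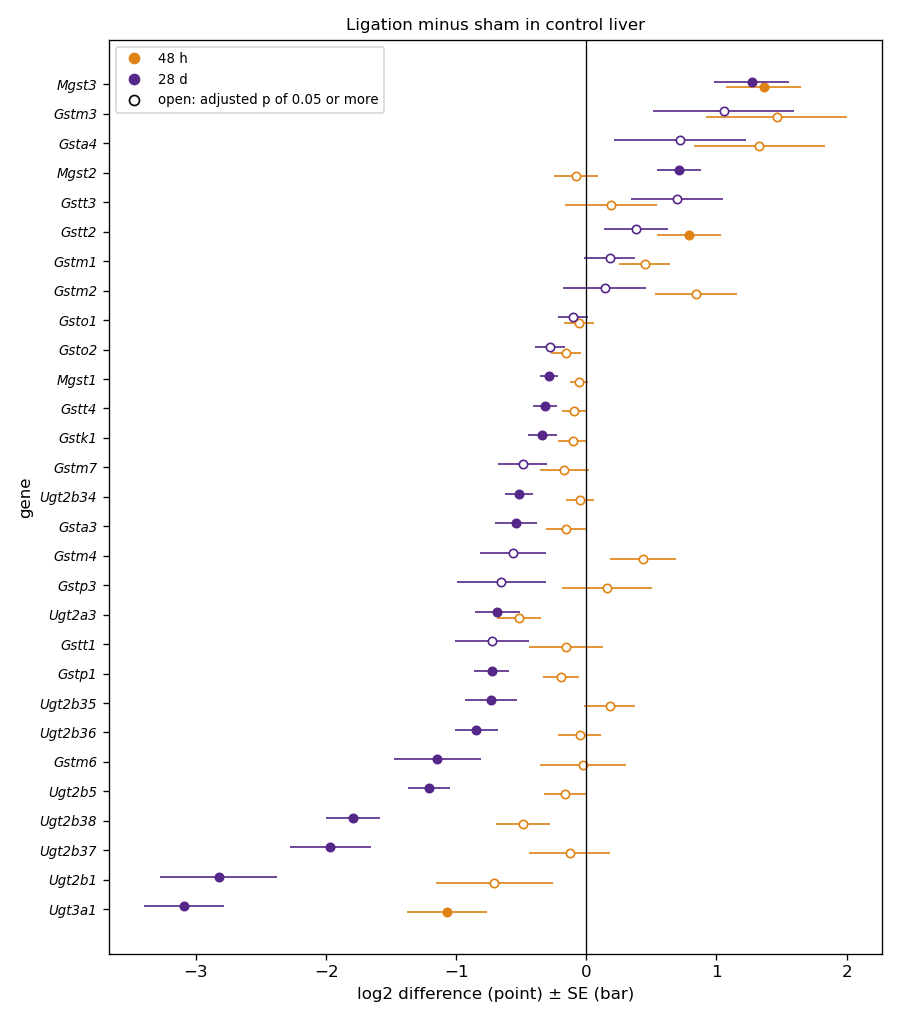
Differences between ligated and sham control liver (log2, with SE) for the 29 members at 48 h and at 28 d. All 9 glucuronosyltransferases, with Ugt3a1 counted among them, lie below 0 at 28 d, from -0.52 for Ugt2b34 to -3.09 for Ugt3a1.

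**Figure D2:**
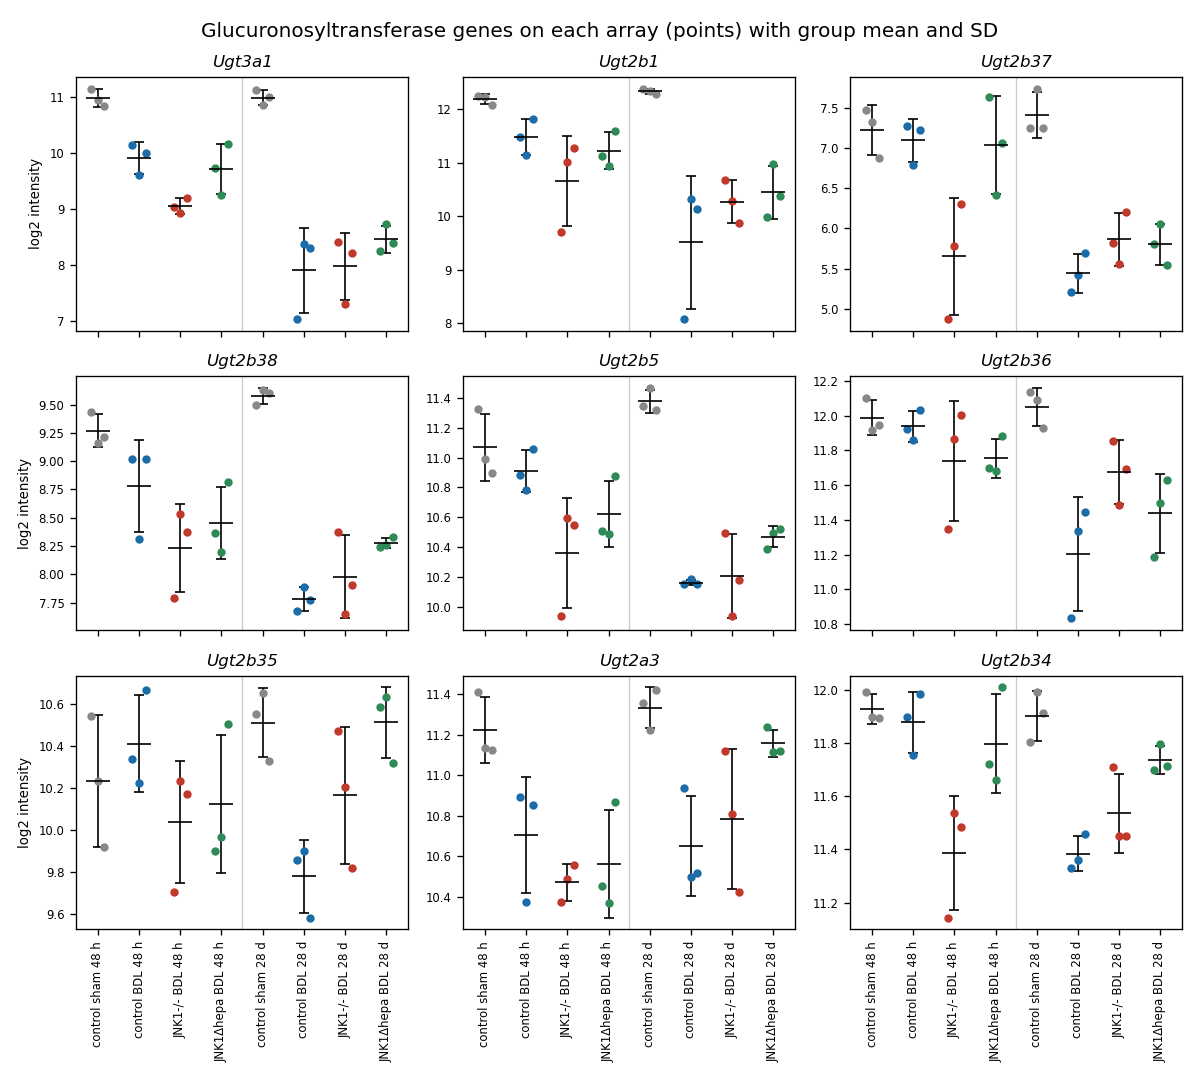
Log2 intensity of the Ugt2 genes and Ugt3a1 on each array, by group. The Ugt3a1 arrays of control liver ligated for 28 d lie between 7.04 and 8.38, and those of the sham group between 10.86 and 11.14.

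Among the cytosolic and kappa transferases, 5 of 17 were called lower after 28 d and none higher. Over all genes 11.5% were called lower and 11.7% higher. Of the 17, 11 had a negative difference. Gstm6, of the mu class, read 11.21, 10.68 and 10.99 after sham and 8.94, 10.07 and 10.43 after ligation, a difference of -1.15 (SE 0.33, limma adjusted p = 0.0167) with replicate 1 again the lowest. Gstp1, the pi class enzyme abundant in male mouse liver, read 12.84, 12.80 and 12.85 against 11.87, 12.16 and 12.27, a difference of -0.73 (SE 0.14, limma adjusted p = 0.000607). Both groups were separate for both genes. The alpha class gene Gsta3 differed by -0.54, the kappa gene Gstk1 by -0.34 and Gstt4, a dim probe set, by -0.32, all called lower. These calls and that of Gstm6 were less firm than those of the glucuronosyltransferases. Without control ligated replicate 1 none of the 4 was called, and Gstm6 differed by -0.71 (limma adjusted p = 0.109), Gsta3 by -0.39 (0.1), Gstk1 by -0.27 (0.122) and Gstt4 by -0.28 (0.0671). Gsta3 and Gstk1 were also not called after quantile normalization (limma adjusted p = 0.0575 and 0.164). Leaving out a sham array ended the call of Gstm6 (replicate 1), Gsta3 (replicate 1 or 3), Gstk1 (any) or Gstt4 (replicate 3), and Gstt4 was not called without ligated replicate 3 either. Gsta4, whose enzyme favours the lipid peroxidation product 4-hydroxynonenal, differed by 0.72 and Gstm3 by 1.06, neither called. Leaving JNK1-/- 48 h replicate 1 out of the shared spread gave both an adjusted p under the threshold (limma, 0.00476 for Gsta4 and 0.0023 for Gstm3), with 24.7% of all genes called.

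The microsomal transferases split. Mgst3, a membrane enzyme with peroxidase activity, read 6.17, 6.10 and 6.75 after sham and 7.15, 7.80 and 7.88 after ligation, a difference of 1.27 (SE 0.29, 2.41-fold higher, limma adjusted p = 0.00319). Mgst2, a relative of leukotriene C4 synthase, rose by 0.71 (SE 0.17, limma adjusted p = 0.00418) at a low level, from 3.46, 3.46 and 3.55 to 4.63, 4.27 and 3.70. Mgst1, an abundant enzyme of the endoplasmic reticulum and the outer mitochondrial membrane, fell by 0.29 (limma adjusted p = 0.00506), with all sham arrays above all ligated ones. A fit on the 6 arrays compared called 11 members, 10 lower and 1 higher; Gsta3, Gstk1, Gstm6, Gstt4, Mgst1 and Mgst2 were not among them. Centring each array on its median called 20 members, 18 lower and 2 higher, while the median over all genes moved to -0.12 and the calls over all genes to 1660 higher and 3693 lower.

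At 48 h Mgst3 and Gstt2 were called higher and Ugt3a1 lower, 3 of 29 members, a share near that of all genes (9.43%, with 5.61% higher and 3.83% lower). The count was 7 without JNK1-/- 48 h replicate 1 in the shared spread and 9 in a fit on the 6 arrays compared. Mgst3 read 5.86, 5.70 and 5.24 after sham and 7.14, 7.10 and 6.64 after ligation, a difference of 1.36 (SE 0.29, 2.57-fold higher, limma adjusted p = 0.00484). Ugt3a1 read 11.16, 10.96 and 10.85 against 10.15, 9.60 and 10.00, a difference of -1.07 (SE 0.31, limma adjusted p = 0.031). Ligated and sham arrays were separate for both. Gstt2, of the theta class, read 7.55, 7.82 and 7.93 against 8.37, 8.76 and 8.55, a difference of 0.79 (SE 0.24, limma adjusted p = 0.047).

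These calls were close to the threshold for Gstt2 and Ugt3a1. Gstt2 was not called without any 1 of the 6 arrays compared, nor after quantile normalization or median centring (limma adjusted p = 0.0551 and 0.051). Ugt3a1 was not called without ligated replicate 2 or 3 or any sham array, where its difference ran from -0.91 to -1.14. Set against the sham arrays of 28 d, 3 members were called, all lower (Ugt2a3, Ugt2b38 and Ugt3a1), and Mgst3 differed by 0.62 (limma adjusted p = 0.192).

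A group of alpha and mu class genes had large differences at 48 h that were not called in the shared fit. Gstm3 read 11.85, 11.68 and 11.13 after sham and 13.01, 12.96 and 13.08 after ligation (difference 1.46, SE 0.54, limma adjusted p = 0.0991). Gsta4 read 9.71, 9.83 and 9.43 against 10.89, 11.05 and 11.02 (difference 1.33, SE 0.51, limma adjusted p = 0.109). Gstm2 read 9.22, 9.24 and 9.22 against 10.11, 10.07 and 10.03 (difference 0.84, limma adjusted p = 0.106). In each of these 3 genes all ligated arrays lay above all sham arrays. With JNK1-/- 48 h replicate 1 left out of the shared spread, the SE of Gsta4 became 0.17 and that of Gstm3 0.23, and 7 members were called, 6 higher and 1 lower, against 11.1% of all genes. The added calls were Gsta4, Gstm1, Gstm2 and Gstm3 (limma adjusted p = 5.87e-05, 0.00364, 0.0104 and 0.000356). Gstm3 had a pair of probe sets, which differed by 1.46 and 2.02 at 48 h and by 1.06 and 1.58 at 28 d. The first value of each pair is that of the brighter set, the one used here.

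**Figure D3:**
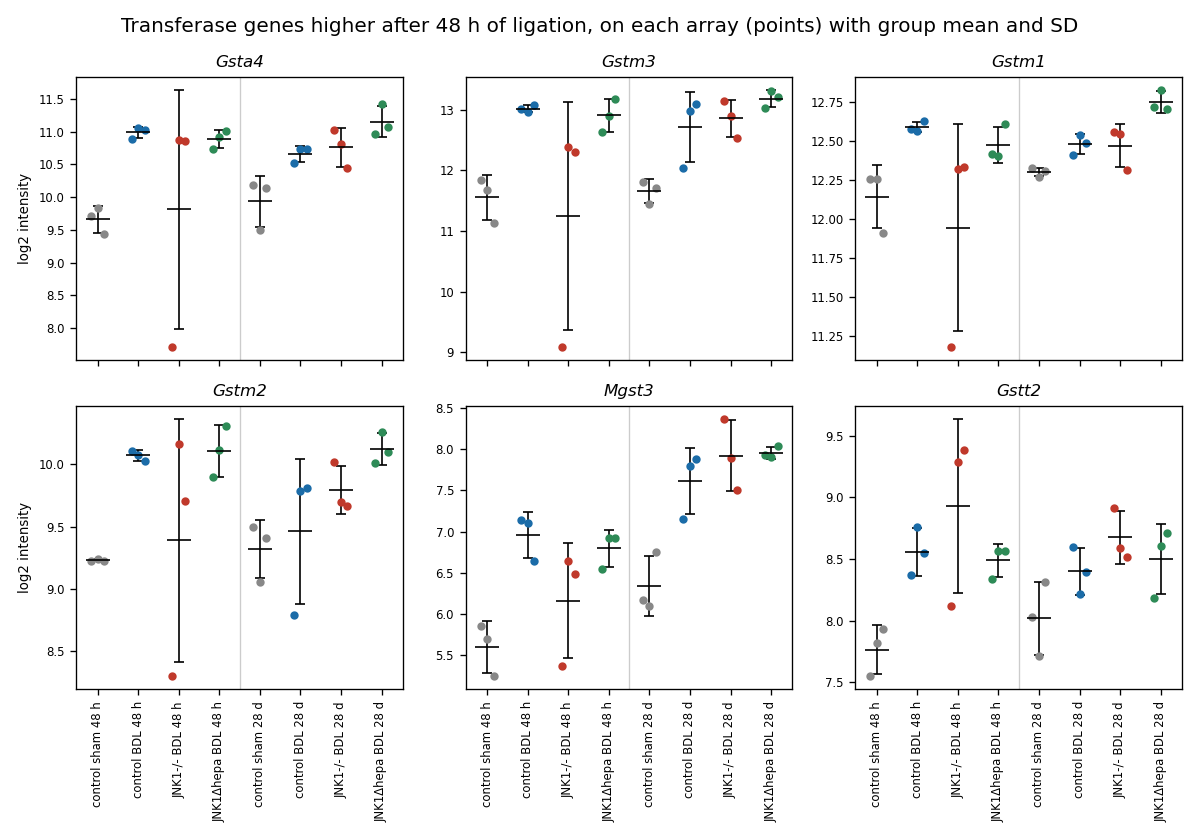
Log2 intensity of glutathione transferase genes on each array, by group. For Gsta4 the ligated control arrays of 48 h lie between 10.89 and 11.05, those of the sham group between 9.43 and 9.83, and 1 JNK1-/- array of 48 h lies at 7.71.

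The response to ligation differed between the times for 4 members, Ugt3a1 and genes of the Ugt2 family, all in the lower direction. Over all genes 1.3% were called in that test and 0.59% called lower. The difference at 28 d minus that at 48 h was -2.02 for Ugt3a1 (SE 0.43, limma adjusted p = 0.0257), -1.84 for Ugt2b37 (SE 0.44, limma adjusted p = 0.0434), -1.31 for Ugt2b38 (SE 0.29, limma adjusted p = 0.0327) and -1.05 for Ugt2b5 (SE 0.23, limma adjusted p = 0.0277). At 48 h, Ugt2b37 read 7.47, 7.32 and 6.87 after sham and 7.28, 6.78 and 7.22 after ligation, and the groups overlapped. Ugt2b5 overlapped as well, at 11.32, 10.99 and 10.90 against 10.89, 10.78 and 11.06. Ugt2b1 had a larger estimate, -2.12, with a wider error (SE 0.63, limma adjusted p = 0.111). In the test of the times 27 of 29 members had a negative estimate, with a median of -0.47 against 0.00 over all genes. This test uses the sham arrays of 48 h, whose Mapk8 level stood apart, and its calls depended on single arrays: 0 members were called without control ligated 48 h replicate 1, sham 28 d replicate 1 or 3, or sham 48 h replicate 2 or 3. A single member was called without control ligated 48 h replicate 3 or sham 28 d replicate 2, 2 without control ligated 28 d replicate 1 or sham 48 h replicate 1, and 7 without control ligated 28 d replicate 3. With all arrays 13 members had an unadjusted p under 0.05 in this test. Between the sham groups of the 2 times no member was called by limma, against 0.133% of all genes called. The smallest adjusted p was that of Mgst3 (difference 0.74, limma adjusted p = 0.505). At the looser cut, an unadjusted p under 0.05, 1 of 29 members passed.

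Over all genes 9.43% were called at 48 h (5.61% higher, 3.83% lower) and 23.2% at 28 d (11.7% higher, 11.5% lower). Genes that supply glutathione were called higher in 6 of 20 at 48 h and none lower, and in 6 higher and 4 lower at 28 d. Slc7a11, which imports cystine, rose by 2.06 at 48 h and Gclm, a subunit of the first enzyme of glutathione synthesis, by 0.43, while at 28 d Gss, glutathione synthetase, rose by 1.06 and Gclc, the catalytic subunit of the first enzyme, fell by 0.74. The median differences of this list were 0.17 and 0.21. Other NRF2 targets were called higher in 7 of 13 at 48 h, and in 5 higher and 1 lower at 28 d, with medians of 0.53 and 0.27. Nqo1, a quinone reductase, rose by 1.86 and 2.81 and Hmox1, which degrades haem, by 1.61 and 1.99 at the 2 times. Me1, malic enzyme, fell by 1.57 at 28 d.

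The next lists are short, and over all genes 5.61% were called higher and 3.83% lower at 48 h, and 11.7% and 11.5% at 28 d. In 10 measured genes of UDP-glucuronate formation and use, 1 was called higher at 48 h, Slc35d1, which carries UDP-sugars into the endoplasmic reticulum (0.40). At 28 d 1 was called higher and 3 lower, among them Rgn (-2.09) and Gulo (-1.28), enzymes that act downstream of glucuronate. Exporters of conjugates were called in 5 of 7 at 48 h, 3 higher and 2 lower, and in 6 of 7 at 28 d, 4 higher and 2 lower. Abcc4 and Abcc3, which export into blood, rose by 1.35 and 0.73 at 48 h and by 1.46 and 0.55 at 28 d, and Abcc6 fell by 1.02 and 1.11. Of 13 relatives of the transferase fold or the microsomal family, 2 were called higher at each time, with Alox5ap, the activator of leukotriene synthesis, at 1.03 and 1.87.

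Regulators of these families were called in both directions. Of 17 measured, 2 were higher and 3 lower at 48 h, and 3 higher and 3 lower at 28 d. The shares of all genes called were 9.43% at 48 h and 23.2% at 28 d. Nfe2l2, which encodes NRF2, rose by 0.88 at 48 h, whereas Ppara and Nr1h4, nuclear receptors for fatty acids and bile acids, fell by 1.14 and 0.86. At 28 d Ppara fell by 0.75 and Cebpa, a hepatocyte transcription factor, by 1.07.

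Markers of cell types are given beside these results; over all genes 9.43% were called at 48 h and 23.2% at 28 d. Hepatocyte markers were called lower in 1 of 11 at 48 h and 2 of 11 at 28 d, and none higher; their summed level was 16.37 to 16.41 in sham liver and 16.26 to 16.41 in ligated liver at 28 d. Cholangiocyte markers were called higher in 3 of 7 at 48 h and 2 of 7 at 28 d, with a summed level of 8.32 to 8.96 in sham and 9.11 to 11.3 in ligated liver at 28 d. Macrophage markers were higher in 2 of 12 and 9 of 12, at 12.5 to 12.9 in sham and 13.4 to 13.8 in ligated liver at 28 d. Neutrophil markers were higher in 4 of 9 at each time, at 7.41 to 7.52 in sham and 8.46 to 9.18 in ligated liver at 28 d. Of 12 stellate cell and myofibroblast markers none was called at 48 h and 2 were higher at 28 d (10 positive, median 0.84). Endothelial markers were lower in 3 of 10 at 28 d and none was called at 48 h, and lymphocyte markers were lower in 1 of 8 and 2 of 8. Their part in the members' results was not tested. No marker of these lists has a value of 0, since the values are intensities.

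In JNK1-/- liver ligated for 48 h, 2 members were called lower than in ligated control liver and none higher, against 2.3% of all genes called and 1.11% called lower. Ugt2b37 read 7.28, 6.78 and 7.22 in control and 4.87, 5.78 and 6.30 in JNK1-/- liver, a difference of -1.44 (SE 0.31, 2.72-fold lower, limma adjusted p = 0.0172). Ugt2b34, which was more even, read 11.90, 11.75 and 11.98 against 11.14, 11.54 and 11.48, a difference of -0.49 (SE 0.11, limma adjusted p = 0.0214). Both pairs of groups were separate, and replicate 1 was the lowest JNK1-/- array in both genes. Estimates were negative in 25 of 29 members, with a median of -0.49 against 0.00 over all genes; without JNK1-/- replicate 1 the median was -0.26.

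Replicate 1 of that group carried much of this pattern. On it Gsta4 read 7.71 where the other JNK1-/- arrays read 10.87 and 10.86, and Gstm3 read 9.08 where they read 12.38 and 12.30. The mean of the 11 hepatocyte markers on the 3 arrays lay between 12.96 and 12.97, and that of 9 neutrophil markers was 6.05 on replicate 1 and 5.27 and 5.07 on the others. Replicate 1 stood apart in further lists. In the order of the replicates, means were 8.40, 9.14 and 9.00 for other NRF2 targets and 9.53, 9.87 and 9.84 for UDP-glucuronate genes. Endothelial means were 9.11, 8.55 and 7.82. Stellate and myofibroblast means were 7.22, 7.60 and 6.54, with replicate 1 between the others. The part of these lists in the result was not tested. Without replicate 1, Ugt2b37 differed by -1.05 (limma adjusted p = 0.0943) and Ugt2b34 by -0.37 (limma adjusted p = 0.118), and the only member called was Gstt2, which was higher by 0.78 (SE 0.19, limma adjusted p = 0.0444), against 1.24% of all genes. Gstt2 read 8.12, 9.29 and 9.38 on the JNK1-/- arrays. No member was called without control ligated replicate 1 or 3, and 5 were called lower without JNK1-/- replicate 2 or 3.

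JNK1Δhepa liver ligated for 48 h had no called member and 0% of all genes called; 1 member had an unadjusted p under 0.05. Differences ran from -0.33 to 0.32, and the groups overlapped in 28 of 29 members; they did not in the other, against 9.87% of all genes. Compared directly, JNK1-/- and JNK1Δhepa liver at 48 h differed in Ugt2b37, which was lower by 1.38 in JNK1-/- liver (SE 0.31, difference -1.38, limma adjusted p = 0.0223), the 1 member called, against 2.44% of all genes called and 1.24% called lower. The JNK1Δhepa arrays read 7.63, 6.42 and 7.06. Without JNK1-/- replicate 1 the difference was -0.99 (limma adjusted p = 0.112) and Gstt2, higher by 0.85 in JNK1-/- liver, was called in its place (limma adjusted p = 0.0278), against 1.21% of all genes. No member was called without JNK1Δhepa replicate 1 or 3, 3 were called without JNK1-/- replicate 2 and 2 without replicate 3.

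After 28 d no member was called in either mutant. In JNK1Δhepa liver 0.228% of all genes were called, and 28 of 29 members had a positive difference from ligated control liver, with a median of 0.27 against 0.01 over all genes, where 9878 of 18820 were positive. The median was 0.19 without control replicate 1 and 0.39 without control replicate 3. It was 0.37 without JNK1Δhepa replicate 1, the array with Mapk8 at the control level. Markers of other cell types lay the other way: stellate cell and myofibroblast markers were negative in 12 of 12 (median -1.10), cholangiocyte markers in 7 of 7 (-0.92), macrophage markers in 11 of 12 (-0.45) and neutrophil markers in 8 of 9 (-0.35), none called. The summed level of stellate and myofibroblast markers was 12.1 to 13.5 in ligated control and 11.7 to 12.2 in JNK1Δhepa liver. Much of the gap in the stellate and cholangiocyte lists lay on control replicate 3. Stellate and myofibroblast means were 7.15, 7.81 and 9.32 in control and 6.82, 7.44 and 7.27 in JNK1Δhepa liver. Cholangiocyte means were 5.77, 5.98 and 7.96 in control and 5.91, 5.75 and 5.56 in JNK1Δhepa liver. Hepatocyte markers were positive in 7 of 11 (median 0.06). The part of these markers in the result was not tested. By limma, 7 members had an unadjusted p under 0.05. Gstt3, of the theta class, read 9.72, 9.35 and 8.00 in ligated control liver and 10.29, 10.66 and 10.38 in JNK1Δhepa liver, a difference of 1.42 (SE 0.35, limma adjusted p = 0.0802). Every JNK1Δhepa array lay above every control array, and control replicate 3 was the lowest. Ugt2b35 was next, with a difference of 0.73 (limma adjusted p = 0.102). Without control replicate 1, 3 members were called higher: Gstt3 (1.77, limma adjusted p = 0.00702), Ugt2a3 (0.65, limma adjusted p = 0.0279) and Ugt2b35 (0.77, limma adjusted p = 0.0355). The share of all genes called in that fit was not taken, so no excess can be read from this count. That control array is the one that stood apart among the members at 28 d. Over all genes control replicate 3 stood nearly as far apart, with 851 genes more than 1 unit away against 966.

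JNK1-/- liver at 28 d had positive differences in 25 of 29 members, with a median of 0.22 against -0.01 over all genes and 0.627% of all genes called. That median was 0.05 without control replicate 1, 0.27 without control replicate 3 and 0.09 without JNK1-/- replicate 1. Markers of stellate cells and myofibroblasts were negative in 12 of 12 (median -0.40). So were those of neutrophils in 9 of 9 (-0.24) and of macrophages in 11 of 12 (-0.29), and none was called. Stellate and myofibroblast means were 7.15, 7.81 and 9.32 in control and 7.14, 7.44 and 8.25 in JNK1-/- liver, with control replicate 3 the highest. Endothelial means were 7.95, 8.41 and 8.64 in control and 8.30, 8.12 and 8.90 in JNK1-/- liver, and the groups overlapped. The part of these markers in the result was not tested in JNK1-/- liver either. The 2 mutants share the control arrays, so these counts are not independent. Ugt2b36 (0.47, limma adjusted p = 0.225) and Gstk1 (0.30, limma adjusted p = 0.255) had the smallest p, and 4 members had an unadjusted p under 0.05. Ugt3a1 read 8.42, 7.30 and 8.22 in JNK1-/- and 8.25, 8.73 and 8.40 in JNK1Δhepa liver, and both groups overlapped ligated control liver. Compared directly at 28 d, the mutants differed in no called member, against 0.962% of all genes; Gstt3 had the smallest p (-1.13 in JNK1-/- relative to JNK1Δhepa liver, limma adjusted p = 0.113), and 3 members had an unadjusted p under 0.05.

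The change of each mutant's difference from 48 h to 28 d was tested as well, a comparison added after the data were seen. No member was called for JNK1-/- liver with all arrays or without replicate 1 of 48 h (0.744% and 0.255% of all genes called), where 19 and 10 members had an unadjusted p under 0.05. None was called for JNK1Δhepa liver (0% of all genes), where 8 had an unadjusted p under 0.05.

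**Figure D4:**
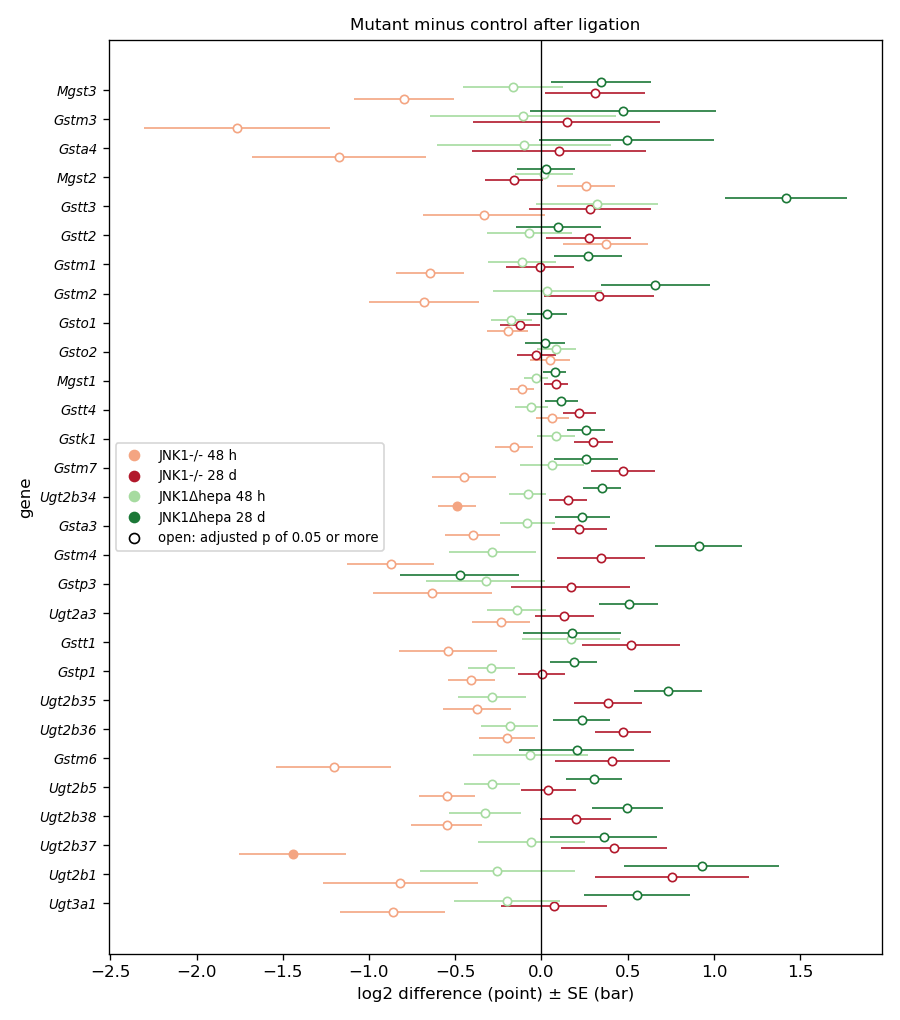
Differences between ligated mutant and ligated control liver (log2, with SE) for the 29 members, by genotype and time. At 48 h 25 of 29 JNK1-/- differences lie below 0, and at 28 d 28 of 29 JNK1Δhepa differences lie above 0.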

How the data were processed

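Whole-liver RNA was hybridised to arrays, 1 per sample. The authors deposited log2 intensities, made for each probe set with RMA per the submitters' processing notes; no source used here gives its settings or version. RNA had an integrity number above 8 per the labels' protocols. Of 35556 probe sets, 21218 carried 1 symbol, 1881 several and 12457 none; only the first kind was used, and each of 18820 symbols was represented by its brightest probe set over all arrays. Column medians were 5.18 to 5.32, no arrays were identical, and correlations between arrays reached 0.997. Their number limits the precision: the median SE of a difference was 0.129.

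A linear model of limma 3.58.1 (R 4.3.3, with the package data.table in version 1.17.8) gave 8 group means over 24 arrays with moderated variances; 16 degrees of freedom remained. P-values were adjusted by Benjamini and Hochberg over all 18820 genes in each of 10 comparisons, and genes were called at an adjusted p under 0.05. The scripts were tested on simulated data. Members, gene lists and alternatives were chosen with earlier results of these data known. Members were named if called with the largest changes (up to 8 per direction in a ligation comparison, up to 6 elsewhere), or by the 2 smallest p where none was called; from related lists up to 4 genes with the smallest p were eligible. Other members and list genes, the HNF1 motifs and the shared run were chosen after their values were seen. All 29 members were matched to RefSeq genes on GRCm38.p6 by gene number. Summed levels are the log2 of the sum of a list's intensities.

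Whether replicate numbers pair arrays was checked through the correlation of same-numbered arrays' deviations from their group means. Every pair exceeded 0.1 for JNK1Δhepa against control at 28 d alone (0.50, 0.24 and 0.16); no source used here says what a number marks. Alternatives were quantile normalization, median centring, a filter on dim genes, the mean of all probe sets, trended robust variances, only the arrays compared, the replicate block, the other sham group and leaving out each array.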

Additional observations from a re-analysis of the deposited data

Results flagged for a closer look

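The difference between ligated and sham control liver was itself different at 28 d and 48 h, by limma's interaction test, for Ugt3a1 (-2.02), Ugt2b37 (-1.84), Ugt2b38 (-1.31) and Ugt2b5 (-1.05), on the log2 scale and as 28 d minus 48 h. Ugt2b37 also differed between the 2 mutants at 48 h of ligation, by -1.38 in JNK1-/- relative to JNK1Δhepa liver. These calls depended on single arrays. Of 20 alternatives, the interaction was called in 14 for Ugt3a1, 13 for Ugt2b5, 11 for Ugt2b38 and 8 for Ugt2b37. The mutant difference of Ugt2b37 was called in 9 of 13, and was -0.99 without JNK1-/- replicate 1, where it was not called.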

How the results depend on the processing

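No member changed direction while called under any alternative run, and the number called stayed within 1.5 times except as follows; it was at that bound for JNK1-/- at 48 h under the filter on dim genes (3 against 2) and for ligation at 48 h after quantile normalization (2 against 3). With only the arrays compared, ligation changed 9 members at 48 h and 11 at 28 d, and none was called (0) for JNK1-/- against control at 48 h and 0 for JNK1-/- against JNK1Δhepa at 48 h; this fit has fewer samples. The last comparison had 2 called members under the filter on dim genes, 2 under median centring and 2 under trended robust variances. Leaving JNK1-/- 48 h replicate 1 out of the shared variance, chosen after seeing the data, gave 7 for ligation at 48 h. Leaving out 1 array at a time gave 1 to 2 called members for ligation at 48 h, 13 to 19 for ligation at 28 d, 0 to 7 for the test between the times, 0 to 5 for JNK1-/- at 48 h, 0 to 3 for JNK1-/- against JNK1Δhepa at 48 h and 0 to 3 for JNK1Δhepa at 28 d; it gave 0 in the other 4 comparisons. With the replicate block, 4 members were called for ligation at 48 h, 17 at 28 d and 3 between the times. It gave 2 for JNK1-/- at 48 h, 1 for JNK1-/- against JNK1Δhepa at 48 h and 0 elsewhere. For JNK1Δhepa at 28 d, where same-numbered arrays deviated alike, no call changed. Whether the numbers pair arrays is unknown. Dim signal limits Gsto2, Gstt4 and Mgst2, the 3 members that the filter on dim genes removed.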
